A study of Mus musculus with 50 samples.

Results

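Gabpa, Spic, Etv5, Elk1, Elk3, Elk4, Ets1, Ets2, Etv6 and Erf are 10 genes of the ETS family of transcription factors. They were picked by symbol from a deposited table of 35750 genes measured in 50 RNA sequencing libraries of mouse embryos, and all 10 had a row in it. Duxbl embryos had received, as zygotes, 200 ng/µl of mRNA named Duxbl-V5-2A-NLS-mCherry, which encodes the double homeobox protein Duxbl with a tag and, separately, the red fluorescent marker mCherry sent to the nucleus. mCherry embryos had received NLS-mCherry mRNA, the marker alone, at that concentration, and uninjected embryos nothing. All were labelled C57BL6/J and WT and came from superovulated females aged 3 to 12 weeks and males of that strain. Zygotes were taken from the oviduct, cultured, and injected 24 h after hCG, the hormone that triggers ovulation. Times of collection, also counted from hCG, were 28 to 30 h for late 1-cell embryos (late 1C), 32 h for early 2-cell embryos (early 2C) and 48 h for late 2-cell embryos (late 2C). A library held 5 pooled embryos. The labels do not say that the pools of a group came from separate litters or days, so p-values measure only the spread between these pools. Duxbl embryos gave 4 libraries of late 1C and 5 of each later stage, and mCherry and uninjected embryos gave 6 each per stage. The series is titled as a study of how DUXBL controls the exit from totipotency, the state in which a cell can give rise to all embryonic and extraembryonic tissues.

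ETS factors share a DNA-binding domain, the ETS domain, which contacts a core of GGAA in DNA. Many of them are phosphorylated by the kinase ERK at the end of the growth factor route that runs through RAS, RAF and MEK, and some activate while others repress transcription. In the mouse the zygote starts with RNA stored in the oocyte, and the embryo's own genome is switched on in a minor wave at the 1-cell stage and a major wave during the 2-cell stage. Gabpa encodes the DNA-binding subunit of GABP, which binds as a complex with a beta subunit and regulates many housekeeping and mitochondrial genes, and mouse embryos without it die before implantation. Spic is related to the blood cell factor PU.1 and is known in the mouse for the macrophages of the splenic red pulp.

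The promoters of Gabpa, Spic, Etv5 and Elk4 are shown because these 4 genes differed most between Duxbl and mCherry embryos at late 2C. Each sequence is the 250 bases before a transcript start, 5′ to 3′ on the strand of the gene, from RefSeq on GRCm38.p6. Capitals mark CCGGAA, an ETS core with its flanking bases, or its reverse complement TTCCGG.
Gabpa, chr16:84834874-84835123, plus strand: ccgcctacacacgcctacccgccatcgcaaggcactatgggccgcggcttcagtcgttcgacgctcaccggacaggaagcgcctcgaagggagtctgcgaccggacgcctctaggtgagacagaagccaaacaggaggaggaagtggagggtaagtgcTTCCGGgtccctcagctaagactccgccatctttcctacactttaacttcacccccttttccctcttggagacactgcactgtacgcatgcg
Spic, chr10:88683024-88683273, minus strand: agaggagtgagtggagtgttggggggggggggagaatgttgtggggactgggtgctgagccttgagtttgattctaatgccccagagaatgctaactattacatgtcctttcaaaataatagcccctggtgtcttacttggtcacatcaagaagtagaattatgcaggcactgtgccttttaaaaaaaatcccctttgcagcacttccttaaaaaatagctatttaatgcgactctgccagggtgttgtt
Etv5, first start, chr16:22439571-22439820, minus strand: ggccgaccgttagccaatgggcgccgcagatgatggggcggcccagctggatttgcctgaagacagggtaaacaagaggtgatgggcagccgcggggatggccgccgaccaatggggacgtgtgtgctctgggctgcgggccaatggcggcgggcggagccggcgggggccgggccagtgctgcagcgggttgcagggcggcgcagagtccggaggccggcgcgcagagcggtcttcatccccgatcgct
Elk4, first start, chr1:132007370-132007619, plus strand: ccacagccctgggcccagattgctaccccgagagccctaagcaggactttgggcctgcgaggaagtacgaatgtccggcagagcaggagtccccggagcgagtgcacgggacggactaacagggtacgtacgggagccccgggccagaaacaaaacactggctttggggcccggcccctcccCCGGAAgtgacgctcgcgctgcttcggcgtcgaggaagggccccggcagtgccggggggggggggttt
RefSeq gave 12 such windows for 9 of the 10 genes. CCGGAA, searched on both strands, was present in 2 of the 12, that of Gabpa and the first of the 3 starts of Elk4. In Gabpa it lies on the opposite strand and begins 92 bases before the start, and in Elk4 it begins 68 bases before the start. Of 32841 mouse promoter windows of the same length, 12% held the motif. The Spic window had a GC content of 44.8%, below the 71.2% of Etv5, the 68% of Elk4 and the 59.6% of Gabpa, with a median of 52.4% over all windows. A match describes these letters and not a bound site.

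Facts of the whole series bear on these genes as follows. Deposited totals were 12 to 27 M per library, and they are scaled values, so that depth is known only approximately. Levels are given in CPM, which here are deposited values divided by a library's scaled total in M. Differences are log2 differences of CPM + 1, with the SE of the limma fit, and a gene is called when limma's adjusted p over all tested genes is under 0.05. The Duxbl1 gene, which measures injected and embryonic transcripts together, stood at 1380 to 4820 CPM over the 14 Duxbl libraries, at 109 to 491 CPM over the 18 mCherry libraries and at 82.7 to 642 CPM over the 18 uninjected libraries. Libraries of late 2C were less alike than the others. The correlation of a library with the rest of its group was 0.869 to 0.938 in Duxbl, 0.932 to 0.963 in mCherry and 0.885 to 0.965 in uninjected embryos at late 2C, against 0.938 to 0.989 at the other stages. All 10 maternal oocyte transcripts of a marker list averaged above 1 CPM in every group. Their summed level at late 2C was 4230 to 5370 CPM in Duxbl, 1110 to 1710 CPM in mCherry and 985 to 1980 CPM in uninjected embryos. The sum of 10 transcripts of the 2-cell stage was 8.03 to 197 CPM in Duxbl, 696 to 2860 CPM in mCherry and 687 to 1870 CPM in uninjected embryos at late 2C. Whether the members' differences at late 2C and this difference in stage markers depend on each other was not tested. In pooled embryos, fewer embryos with a transcript and less transcript per embryo cannot be told apart.

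In uninjected embryos the 10 genes followed different courses. Gabpa (ENSMUSG00000008976, mm39 chromosome 16, 84631813 to 84660667, plus strand) averaged 1.9 ± 0.898 CPM at late 1C, 9.29 ± 2.77 CPM at early 2C and 306 ± 142 CPM at late 2C (SD, n = 6 each). Spic (ENSMUSG00000004359, chromosome 10, 88510634 to 88520877, minus strand) averaged 3.92 ± 1.54, 8.95 ± 6.28 and 756 ± 495 CPM at the same stages. Etv5 (ENSMUSG00000013089, chromosome 16, 22200059 to 22258469, minus strand), a factor of the PEA3 group known for the self-renewal of spermatogonial stem cells in the mouse, averaged 3.98 ± 1.05, 5.04 ± 1.8 and 75.6 ± 16.1 CPM. All 3 genes had every late 2C library above every early 2C library, and the share of all genes with such separation was not computed. Elk4 (ENSMUSG00000026436, chromosome 1, 131935345 to 131960350, plus strand) ran the other way at the last step, with 123 ± 21.9, 145 ± 29.6 and 71.4 ± 15 CPM. Elk4 is one of the 3 ternary complex factors, with Elk1 and Elk3, which bind DNA together with the serum response factor SRF. Ets2 (ENSMUSG00000022895, chromosome 16, 95502942 to 95522095, plus strand), needed in the mouse for trophoblast development, had its highest mean at late 1C, 48.7 ± 9.37 CPM, followed by 22.5 ± 10.4 CPM at early 2C and 3.99 ± 4 CPM at late 2C.

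Between early 2C and late 1C in uninjected embryos, Gabpa was the only member that limma called, in a step where 2.89% of 28808 tested genes were called. Its libraries lay at 6.46 to 14.3 CPM at early 2C, against 0.518 to 2.81 CPM at late 1C, with no overlap. The rise was 1.86 (SE 0.40, limma adjusted p 0.00233). With voom weights it was 2.42 and did not pass (limma adjusted p 0.148). Spic had a difference of 0.86 (SE 0.44, limma adjusted p 0.504), and its libraries overlapped. Ets2 had a difference of -1.23 (SE 0.46, limma adjusted p 0.199), which passed in a fit of these 2 groups alone (-1.19, limma adjusted p 0.0147).

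Between late 2C and early 2C, 8 of the 10 members were called in uninjected embryos, 5 higher and 3 lower, where 57.1% of all tested genes were called, 30.8% higher and 26.3% lower. Spic rose by 6.15 (SE 0.44), Gabpa by 4.77 (SE 0.40) and Etv5 by 3.69 (SE 0.32), with limma adjusted p of 3.42e-17, 4.68e-15 and 2.55e-14. Elk1 (ENSMUSG00000009406, chromosome X, 20799634 to 20816847, minus strand) rose by 1.66 (SE 0.31, limma adjusted p 9.58e-06), with 9.92 ± 3.07 CPM at late 2C against 2.38 ± 0.622 CPM at early 2C. Ets2 was lower by a log2 difference of -2.43 (SE 0.46, limma adjusted p 1e-05) and Elk4 by -1.01 (SE 0.16, limma adjusted p 1.73e-07), and both had libraries of the 2 stages that overlapped. With library totals in place of trimmed-mean scaling, the difference of Elk4 was -0.64 and still passed. The call of Etv6 (1.33, SE 0.52, limma adjusted p 0.0258), a repressor known for blood formation in the mouse, was lost in 5 of 12 fits that left out a library, those without early 2C library 4 or 5 or late 2C library 3, 6 or 7, which gave 1.05 to 1.24. The call of Elk3 (a difference of -1, SE 0.42, limma adjusted p 0.0388) was lost in 7 of the 12, those without early 2C library 1, 3, 6 or 7 or late 2C library 1, 3 or 7, which gave -0.97 to -0.78, and with library totals (-0.68, limma adjusted p 0.211). Erf, a repressor that leaves the nucleus when ERK phosphorylates it, and Ets1, a founding member of the family, were not called.

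The order of the members changed with these steps. Per kilobase of exon, from a GENCODE annotation of GRCm38, uninjected late 1C embryos had Elk4 first at 19.2 CPM per kb, then Ets2 at 8.43 and Elk3 at 2.51, with the other 7 genes between 0.0824 and 1.02 CPM per kb. At late 2C Spic was first at 197 CPM per kb, then Gabpa at 53.8, Etv5 at 18.4 and Elk4 at 11.1, with the other 6 between 0.0466 and 1.92. In Duxbl embryos at late 2C Elk4 was first at 44.5 CPM per kb, Gabpa followed at 5.59, and the other 8 lay between 0.00107 and 2.2 CPM per kb. Of neighbours in these orders, the library ranges did not overlap between Elk4 and Ets2 or between Ets2 and Elk3 at uninjected late 1C, between Etv5 and Elk4 or between Elk4 and Etv6 at uninjected late 2C, and between Elk4 and Gabpa or between Elk1 and Ets1 at Duxbl late 2C. All other neighbours in these 3 groups overlapped, among them Spic and Gabpa at uninjected late 2C.

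**Figure D1:**
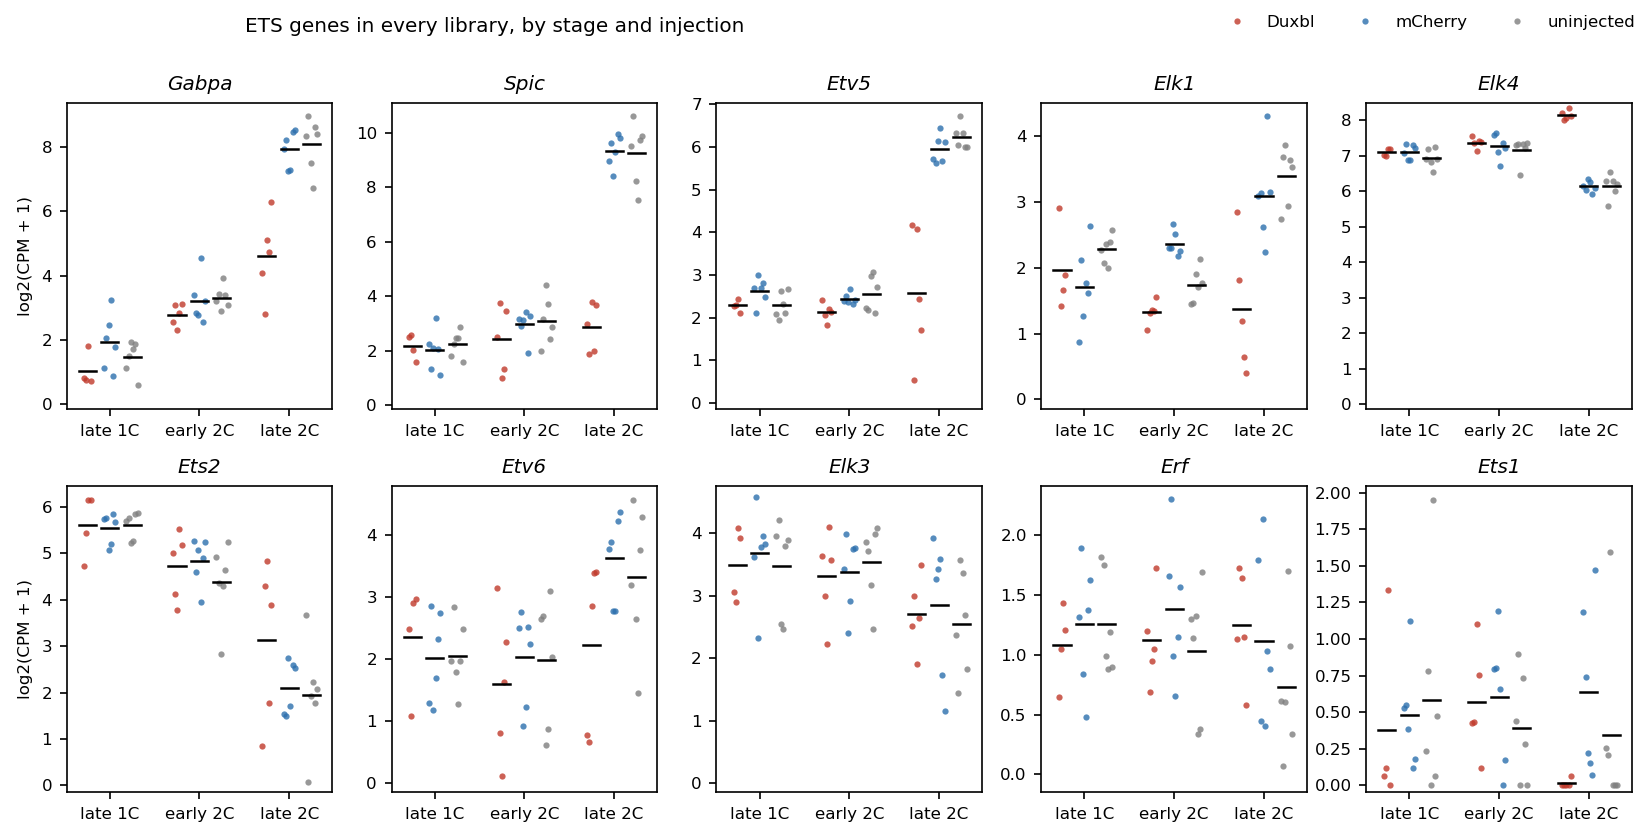
Level of each of the 10 ETS genes in every library, as log2(CPM + 1), at 3 stages (horizontal axis) in Duxbl, mCherry and uninjected embryos. Points are libraries and bars are means of the log2 values. At late 2C the Duxbl libraries of Gabpa, Spic and Etv5 lie below, and those of Elk4 above, all mCherry and uninjected libraries.

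Injection of mCherry mRNA was compared with no injection at each stage. None of the 10 members tested at late 1C and at early 2C was called, nor any of the 9 tested at late 2C, and 0% of all tested genes were called at each stage. At an unadjusted p under 0.05 limma had 557 of 20777, 789 of 21180 and 388 of 23052 tested genes at these stages, and none was called with voom weights. One member, Elk1 at early 2C, was among them, with 4.18 ± 0.682 CPM in mCherry and 2.38 ± 0.622 CPM in uninjected embryos (n = 6 each) and a log2 difference of 0.61 (SE 0.21, limma adjusted p 1). The mCherry libraries of Elk1 at early 2C lay at 3.5 to 5.29 CPM and the uninjected ones at 1.73 to 3.37 CPM, with no overlap. At late 2C the means of Gabpa were 261 ± 94.8 CPM in mCherry and 306 ± 142 CPM in uninjected embryos, and those of Spic were 684 ± 243 CPM in mCherry and 756 ± 495 CPM in uninjected embryos, with overlapping libraries in both.

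At late 1C, 4 h to 6 h after injection, no member was called between Duxbl and mCherry embryos, with 0.0193% of 20777 tested genes called. The median log2 difference of the 10 members was -0.06, against -0.01 over all tested genes. Gabpa had the lowest unadjusted p of the members (0.0334, limma adjusted p 0.847). It stood at 0.781, 0.685, 2.52 and 0.676 CPM in the Duxbl libraries, against a lowest of 0.857, a median of 2.82 and a highest of 8.58 CPM in mCherry embryos. The groups overlapped through the single Duxbl library at 2.52 CPM. The log2 difference of Gabpa was -0.88 (SE 0.39). Elk4, the member with the highest level at this stage, averaged 136 ± 9.84 CPM in Duxbl (n = 4) and 138 ± 19.1 CPM in mCherry embryos (n = 6). Of the transcripts of the 2-cell stage, Usp17lc was called lower at this stage (-2.25, SE 0.34, limma adjusted p 0.00745).

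At early 2C, 1 of the 10 members was called, Elk1, lower in Duxbl embryos, with 0.378% of 21180 tested genes called. Elk1 encodes a ternary complex factor that ERK activates. It stood at 1.07, 1.48, 1.55, 1.54 and 1.93 CPM in the Duxbl libraries, against a lowest of 3.5, a median of 3.91 and a highest of 5.29 CPM in mCherry embryos. All Duxbl libraries were below all mCherry libraries. The log2 difference was -1.01 (SE 0.22, limma adjusted p 0.0355). Same-numbered libraries deviated together here, and in a fit blocked by library number the difference was -1.04 and did not pass (limma adjusted p 0.0507). It also failed to pass in each of the 11 fits that left out a Duxbl or mCherry library, with log2 differences of -1.06 to -0.94, and with voom weights (-1.44, limma adjusted p 0.258). Against uninjected embryos the difference was -0.40 (limma adjusted p 0.696), and Elk1 lay lower there than in mCherry embryos. The Elk1 gene overlaps Uxt, on the same strand, over 8887 bases, so reads of the 2 genes can be hard to separate.

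The other 9 members were not called at early 2C. Gabpa stood at 4.89, 7.46, 3.98, 6.17 and 7.66 CPM in Duxbl libraries, against 4.97, 7.22 and 22.3 CPM as the lowest, median and highest of mCherry embryos, and the difference was -0.43 (SE 0.30, limma adjusted p 1). Spic stood at 4.72, 12.3, 1.02, 1.5 and 10.1 CPM in Duxbl libraries, against 2.77, 7.87 and 9.61 CPM in mCherry embryos, and the difference was -0.53 (SE 0.47, limma adjusted p 1). Both genes overlapped between the groups, and 3 Duxbl libraries of Spic lay below 5 CPM and the other 2 above 10 CPM. The median log2 difference of the members was -0.27, with 0.00 over all tested genes. Of the 10 transcripts of the 2-cell stage, 6 of 9 tested were called lower at this stage, among them Usp17lc (-2.82, SE 0.35, limma adjusted p 0.000138) and Eif1ad8 (-3.60, SE 0.48, limma adjusted p 0.000333), while Gabpa, Spic and Etv5 were not called.

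At late 2C, 5 of the 9 tested members were called, 4 lower and 1 higher in Duxbl embryos. Among all tested genes 56.2% of 23052 were called, 28.9% lower and 27.3% higher, so that 5 of 9 is close to the background. The median log2 difference of the 9 tested members was -1.38, against -0.04 over all tested genes. Spic, Gabpa and Etv5 were lower, and Elk4 was higher, with no overlap of Duxbl and mCherry libraries. The share of all tested genes without overlap was not computed, so this separation is not set against a background.

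Spic stood at 6.83, 2.64, 12.7, 2.99 and 11.8 CPM in the 5 Duxbl libraries at late 2C, against a lowest of 339, a median of 704 and a highest of 978 CPM in mCherry embryos. The groups were far apart, and uninjected embryos, at 184 to 1560 CPM, were also above every Duxbl library. Spic was lower in Duxbl than in mCherry embryos by 6.42 on the log2 scale (SE 0.46, limma adjusted p 3.2e-10). Its Duxbl libraries at late 2C covered about the range of those at early 2C, and the log2 difference between these stages in Duxbl embryos was 0.45 (SE 0.49, limma adjusted p 0.513). Markers of macrophages and blood are given beside Spic. The sum of the 9 measured markers of that list was 14 to 32.5 CPM in Duxbl and 21 to 36.8 CPM in mCherry embryos at late 2C. Of these, Adgre1 and Cd3e were listed at 0 in all 6 mCherry libraries, and Ptprc in 4 of 5 Duxbl and 5 of 6 mCherry libraries. Of 5 tested markers 3 were called, Hba-a1 lower (-3.22) and Csf1r (2.55) and Vcam1 (1.03) higher. That is near the 56.2% of all tested genes called. Their part in the level of Spic was not tested.

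Gabpa stood at 15.8, 6.02, 33.4, 25.8 and 78.1 CPM in the Duxbl libraries at late 2C, against a lowest of 151, a median of 269 and a highest of 371 CPM in mCherry embryos. The groups did not overlap, and the Duxbl libraries were spread more widely than the mCherry ones on the log scale. Gabpa was lower in Duxbl than in mCherry embryos by 3.25 (SE 0.47, limma adjusted p 4.21e-06). Unlike Spic, Gabpa was higher in Duxbl embryos at late 2C than at early 2C, by 1.83 (SE 0.44, limma adjusted p 0.000608), although the libraries of these stages overlapped. The Gabpa gene overlaps 701 bases of Atp5j on the opposite strand. Atp5j, of the mitochondrial ATP synthase, averaged 11.4 CPM in Duxbl and 58.9 CPM in mCherry embryos at late 2C. The library kits do not mark the strand, so reads in the shared part can come from either gene.

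Etv5 stood at 17, 0.441, 16, 4.39 and 2.26 CPM in the Duxbl libraries at late 2C, against a lowest of 48, a median of 59.9 and a highest of 85.4 CPM in mCherry embryos. All Duxbl libraries were lower, and 2 of them lay at 16 and 17 CPM and 3 below 5 CPM. Etv5 was lower in Duxbl than in mCherry embryos by 3.34 (SE 0.48, limma adjusted p 4.49e-06). Its difference between late and early 2C within Duxbl embryos was 0.46 (SE 0.36, limma adjusted p 0.332), and it was 0.98 and called (limma adjusted p 0.00933) without Duxbl late 2C library 3, the one at 0.441 CPM.

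Among the ternary complex factors, Elk4 and Elk1 were called in opposite directions at late 2C. Elk4 stood at 296, 257, 267, 326 and 278 CPM in the Duxbl libraries, against a lowest of 59.7, a median of 68.4 and a highest of 79.8 CPM in mCherry embryos. No Duxbl library came near the mCherry range. Elk4 was higher in Duxbl than in mCherry embryos by 2.12 (SE 0.20, limma adjusted p 1.47e-08). In Duxbl embryos its level at late 2C also exceeded that at early 2C, by 0.79 (SE 0.17, limma adjusted p 0.000172), with 285 ± 27.2 CPM at late 2C and 164 ± 17.9 CPM at early 2C (n = 5 each) and no overlap, while it was lower at late 2C in uninjected embryos. CPM are shares of a library, so a higher value need not be more transcript per embryo. Elk4 overlaps Mfsd4a on the opposite strand over 9807 bases, and Mfsd4a averaged 8.66 CPM in Duxbl and 5.74 CPM in mCherry embryos.

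Elk1 stood at 6.21, 2.5, 1.27, 0.56 and 0.316 CPM in the Duxbl libraries at late 2C, against a lowest of 3.7, a median of 7.65 and a highest of 18.8 CPM in mCherry embryos. The groups overlapped through the Duxbl library at 6.21 CPM. Elk1 was lower in Duxbl than in mCherry embryos by 1.72 (SE 0.47, limma adjusted p 0.00352). Uxt, which shares 8887 bases with it, averaged 2.46 CPM in Duxbl and 55.1 CPM in mCherry embryos. Elk3 (ENSMUSG00000008398, chromosome 10, 93083276 to 93146997, minus strand), a ternary complex factor with repressor activity, averaged 6 ± 2.83 CPM in Duxbl (n = 5) and 7.87 ± 5.1 CPM in mCherry embryos (n = 6), a difference of -0.05 (SE 0.54, limma adjusted p 0.94). Elk3 overlaps Cdk17 on the opposite strand over 19658 bases, and Cdk17 averaged 42.2 CPM in Duxbl and 13.7 CPM in mCherry embryos at late 2C. Reads in the shared part can come from either gene.

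The remaining members were low or varied widely at late 2C. Ets2 stood at 0.806, 18.8, 27.4, 2.43 and 13.8 CPM in the Duxbl libraries, against a lowest of 1.8, a median of 3.51 and a highest of 5.76 CPM in mCherry embryos. Of the Duxbl libraries 3 were above all mCherry libraries and 1 was below them. The log2 difference was 1.12 (SE 0.67, limma adjusted p 0.161), and without Duxbl library 1 it was 1.63 and passed (limma adjusted p 0.0339). Etv6 (ENSMUSG00000030199, chromosome 6, 134012663 to 134247121, plus strand) stood at 0.711, 0.588, 6.27, 9.52 and 9.58 CPM in the Duxbl libraries, against a lowest of 5.81, a median of 13.2 and a highest of 19.8 CPM in mCherry embryos, with overlap. The log2 difference of -1.38 (SE 0.61) did not pass (limma adjusted p 0.0577). It passed in 5 of the 11 fits that left out a library, those without mCherry library 4 or 5 or Duxbl library 4, 6 or 7, which gave -1.79 to -1.53. It also passed with library totals (-1.67, limma adjusted p 0.0155), in the fit of the compared groups (-1.45, limma adjusted p 0.0396), in the fit of all groups (-1.41, limma adjusted p 0.0231) and without the libraries numbered 4 (-1.72, limma adjusted p 0.0378).

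Erf (ENSMUSG00000040857, chromosome 7, 24941986 to 24950186, minus strand) averaged 1.46 ± 0.74 CPM in Duxbl (n = 5) and 1.4 ± 1.24 CPM in mCherry embryos (n = 6) at late 2C, with a difference of 0.21 (SE 0.42, limma adjusted p 0.694). Its group means lay between 0.784 and 1.8 CPM over the 9 groups. Ets1 (ENSMUSG00000032035, chromosome 9, 32547517 to 32669116, plus strand) had group means of 0.00904 to 0.698 CPM and too few values for a test at late 2C. It was listed at 0 in 4 of the 5 Duxbl libraries and at 0.0452 CPM in the other, against 0.0494 to 1.78 CPM in mCherry embryos. In uninjected embryos Ets1 was listed at 0 in 3 of 6 libraries, with a median of 0.0758 CPM, so that these overlapped with the Duxbl libraries.

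Against uninjected embryos in place of mCherry embryos, the same 5 members passed at late 2C, Spic at -6.35, Etv5 at -3.65, Gabpa at -3.42, Elk1 at -2.05 and Elk4 at 2.08, with limma adjusted p of 0.000755 or less. The comparisons share the Duxbl libraries. Leaving out any library of Duxbl or mCherry embryos kept these 5 calls, with ranges of -6.74 to -6.26 for Spic, -3.83 to -2.89 for Etv5, -3.79 to -2.90 for Gabpa, -2.17 to -1.47 for Elk1 and 1.98 to 2.18 for Elk4.

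**Figure D2:**
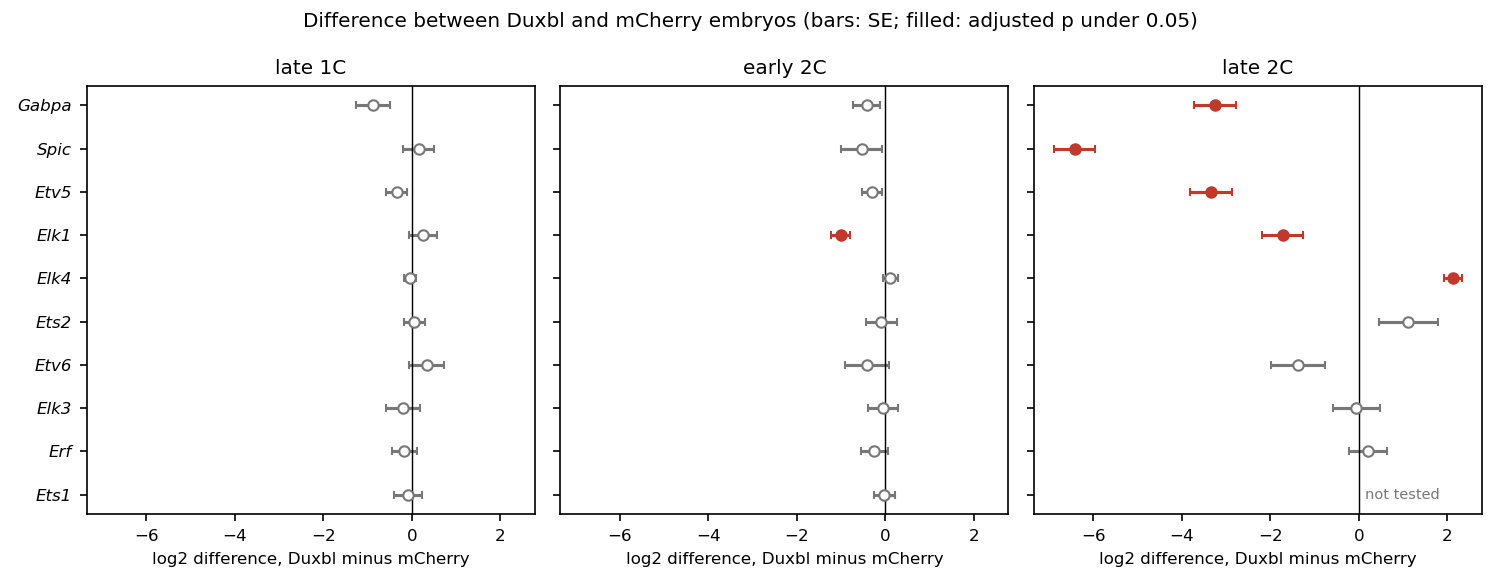
Log2 difference between Duxbl and mCherry embryos (horizontal axis, log2 of CPM + 1) for each of the 10 ETS genes at each of the 3 stages. Dots are limma estimates, bars are SE, and filled red dots have an adjusted p under 0.05. At late 2C Spic lies at -6.42, Etv5 at -3.34, Gabpa at -3.25, Elk1 at -1.72 and Elk4 at 2.12.

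Whether the Duxbl effect differed between late and early 2C was tested as a difference of differences in the fit of all 9 groups. Of the 10 members 4 were called, with 44.9% of 28808 genes called. The effect was more negative at late 2C for Spic, by a log2 difference of -5.92 (SE 0.66, limma adjusted p 2.37e-10). So it was for Etv5, by -3.04 (SE 0.48, limma adjusted p 7.35e-07), and for Gabpa, by -2.89 (SE 0.59, limma adjusted p 6.08e-05). It was higher for Elk4 by 1.93 (SE 0.23, limma adjusted p 1.53e-09). At early 2C mCherry embryos averaged only 7.23 CPM for Spic, 4.47 CPM for Etv5 and 9.55 CPM for Gabpa. On log2(CPM + 1), complete loss from such levels would be smaller than the late 2C difference for Spic and Etv5, and about as large for Gabpa. For these 3 genes the test therefore cannot tell a later effect from a low early level. Elk1, the only member called at early 2C, had a difference of -0.67 (SE 0.47, limma adjusted p 0.248), and -1.04 (limma adjusted p 0.047) without Duxbl late 2C library 1.

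Within Duxbl embryos, 3 of the 10 members were called between late and early 2C, with 38.9% of all tested genes called. Gabpa and Elk4 rose, as given above. Ets2 was lower, with 12.7 ± 11.2 CPM at late 2C and 28.2 ± 13.6 CPM at early 2C (n = 5 each) and a difference of -1.60 (SE 0.51, limma adjusted p 0.00935). That call was lost without Duxbl late 2C library 1 (-1.02, limma adjusted p 0.0904) or library 6 (-1.26, limma adjusted p 0.0507). Uninjected embryos had a difference of -2.43 for Ets2 over the same step.

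The other 16 ETS genes of the mouse that were looked up gave 13 tested genes at late 2C, of which 5 were called higher and 2 lower in Duxbl embryos, with a median log2 difference of 1.13 against -0.04 over all tested genes. That is 7 of 13 called, about the 56.2% of all tested genes (27.3% higher and 28.9% lower). Ehf, an epithelial ETS factor, was higher in Duxbl embryos by 2.21 (SE 0.34, limma adjusted p 1.15e-05), with 139 ± 29.9 CPM in Duxbl (n = 5) and 31.1 ± 6.16 CPM in mCherry embryos (n = 6). Its mean went down in both, from 61.3 CPM per kb at early 2C to 24.9 at late 2C in Duxbl, and from 64.6 to 5.58 in mCherry embryos. Etv1, of the PEA3 group like Etv5, was higher in Duxbl embryos by 1.45 (SE 0.35, limma adjusted p 0.00123). Its mean also went down, from 4.19 CPM per kb at early 2C to 2.05 at late 2C in Duxbl, and from 4.33 to 0.775 in mCherry embryos. Etv1 and Etv5 were thus called in opposite directions, while Etv4, the third gene of the group, had a difference of -0.20 (limma adjusted p 0.766). Elf3, an epithelial factor, was lower in Duxbl embryos by 2.98 (SE 0.38, limma adjusted p 8.75e-07), with 6.18 ± 2.71 CPM in Duxbl and 60.2 ± 28.8 CPM in mCherry embryos. Erg (1.10), Elf2 (1.13) and Spib (1.32) were also called higher and Spi1, the gene of PU.1, lower (-1.56), and each of these 4 calls was lost in fits that left out a library. Erg was lost without Duxbl library 7 (0.94). Elf2 was lost without mCherry library 6 or Duxbl library 1, 3, 4 or 7 (0.92 to 1.02). Spib was lost without mCherry library 3, 5, 6 or 7 or Duxbl library 1, 3, 6 or 7 (0.87 to 1.27), and Spi1 without mCherry library 1, 4, 5 or 6 or Duxbl library 1, 3, 6 or 7 (-1.66 to -1.21). No gene of the list was called at late 1C or early 2C. The list had 4 called genes at late 2C with no filter on low values, without mCherry library 6 or without Duxbl library 3, and 11 in a fit of all groups.

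**Figure D3:**
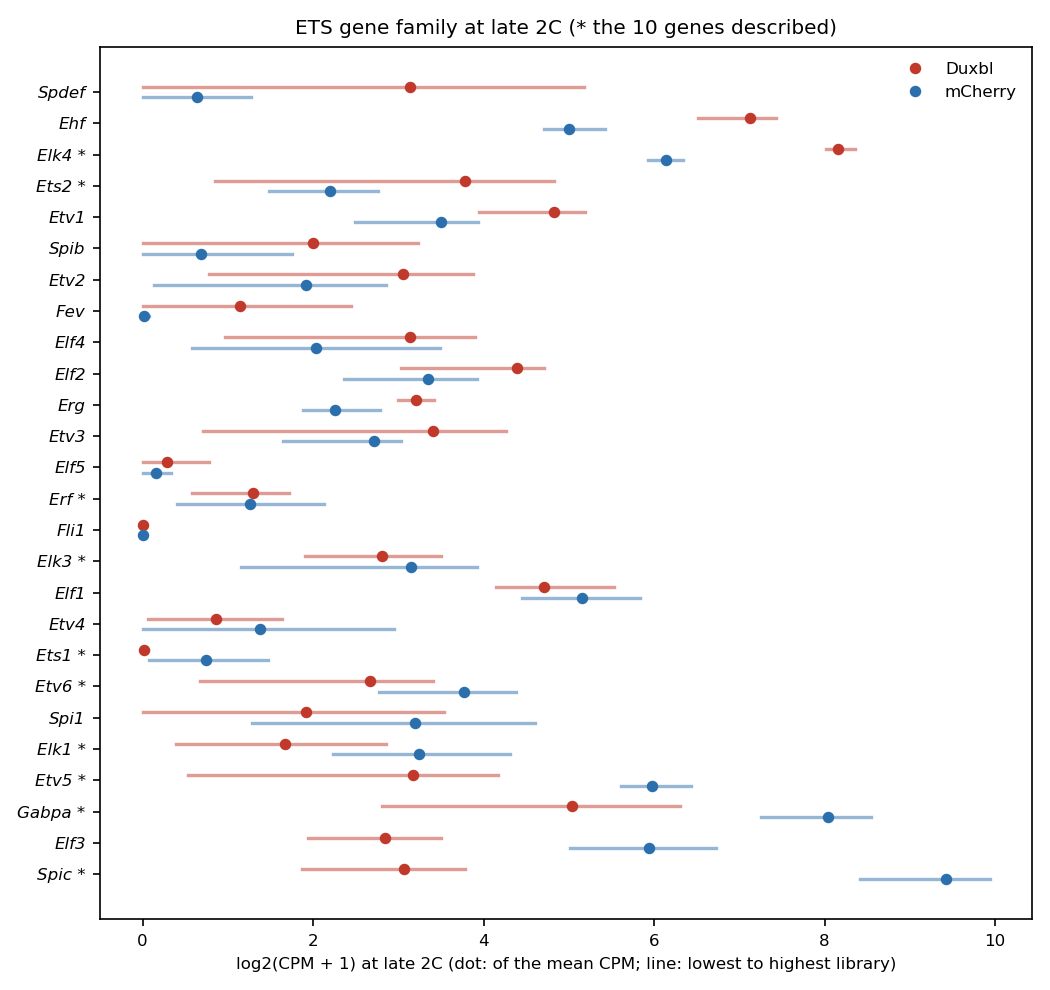
Level of 26 ETS genes at late 2C on the log2(CPM + 1) axis, in Duxbl (red) and mCherry (blue) embryos, ordered by the difference of the means. Dots are log2 of the group mean CPM + 1 (n = 5 and n = 6) and lines run from the lowest to the highest library. Spic, Elf3, Gabpa and Etv5 have Duxbl means far below the mCherry means. Ehf and Elk4 are among the genes with Duxbl means above them. So is Spdef, at low levels and with a wide spread (3.38 ± 6.64 CPM per kb in Duxbl and 0.243 ± 0.272 in mCherry embryos).

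GABP acts with beta subunits and with other nuclear factors that share its promoters. Of 6 such genes 5 were called lower in Duxbl embryos at late 2C and none higher, with a median of -1.29, where 56.2% of all tested genes were called and 28.9% were called lower. Gabpb1, a gene of the beta subunit, averaged 35.6 ± 19 CPM in Duxbl (n = 5) and 171 ± 64.7 CPM in mCherry embryos (n = 6). It was lower in Duxbl embryos by 2.20 (SE 0.36, limma adjusted p 2.21e-05). Also lower in Duxbl embryos were Yy1, a zinc finger factor, by 2.11 (SE 0.30, limma adjusted p 3.27e-06), and Sp1, which binds GC-rich promoters, by 1.77 (SE 0.30, limma adjusted p 3.9e-05). Nrf1 (-0.78, limma adjusted p 0.041) and Gabpb2 (-0.80, limma adjusted p 0.0418) lay near the threshold, and both calls were lost without mCherry library 1, 6 or 7, which left 3 calls in the list. Gabpb2 was also lost without mCherry library 4 or 5 or Duxbl library 3 or 6. Over these fits Gabpb2 was at -0.82 to -0.57 and Nrf1 at -0.70 to -0.64.

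Of 6 measured mitochondrial genes known as GABP targets, 4 were called lower at late 2C and none higher, with a median of -1.04. The 4 of 6 called are near the 56.2% of all tested genes, of which 28.9% were lower. Cox4i1, a subunit of cytochrome oxidase, averaged 22.9 ± 11 CPM in Duxbl (n = 5) and 191 ± 47 CPM in mCherry embryos (n = 6). It was lower in Duxbl embryos by 3 on the log2 scale (SE 0.29, limma adjusted p 1.6e-08). Polrmt, the mitochondrial RNA polymerase, was lower by 2.15 (SE 0.58, limma adjusted p 0.00319), and Tfam, the mitochondrial transcription factor, by 1.54 (SE 0.38, limma adjusted p 0.00143). Tfb2m (-0.53, limma adjusted p 0.045) was called, but not without mCherry library 3, 5, 6 or 7 or Duxbl library 1 or 4 (-0.54 to -0.48). No gene of either GABP list was called at late 1C or early 2C.

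SRF, the partner of the ternary complex factors, and its other cofactors made a list of 3 genes. At late 2C Mrtfb was higher in Duxbl than in mCherry embryos by 1.46 (SE 0.28, limma adjusted p 0.000127). The others were not called, with 56.2% of all tested genes called. Between late and early 2C within Duxbl embryos, all 3 genes had negative log2 differences, so the higher value of Mrtfb was not a rise over time. The median was -0.07. Mrtfb averaged 46.8 ± 12.6 CPM in Duxbl (n = 5) and 17.2 ± 3.02 CPM in mCherry embryos (n = 6).

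The ERK route, which phosphorylates several of these factors, had 13 of 17 genes called at late 2C, 7 higher and 6 lower, with a median of -0.50, against 56.2% of all tested genes called, 27.3% higher and 28.9% lower. Map2k1, the gene of the kinase MEK1, was higher in Duxbl than in mCherry embryos by 1.90 (SE 0.24, limma adjusted p 5.94e-07). Rps6ka3, the gene of a kinase downstream of ERK, was higher by 1.92 (SE 0.25, limma adjusted p 1.02e-06). Araf, a RAF kinase gene, averaged 6.1 ± 5 CPM in Duxbl (n = 5) and 66.5 ± 16.6 CPM in mCherry embryos (n = 6). It was lower in Duxbl embryos by 3.57 (SE 0.44, limma adjusted p 5.51e-07). Of 14 tested genes that respond to ERK, 2 were called higher and 1 lower, with a median of 0.19, a smaller share than the 56.2% of all tested genes. Spry4, a feedback inhibitor of the route, was higher in Duxbl embryos by 1.71 (SE 0.23, limma adjusted p 1.64e-06), and the immediate early gene Egr1 by 1.45 (SE 0.45, limma adjusted p 0.00883). The ERK phosphatase gene Dusp6 was lower by 1.80 (SE 0.59, limma adjusted p 0.0124), and did not pass without the libraries numbered 4 (-1.22, limma adjusted p 0.0904).

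**Figure D4:**
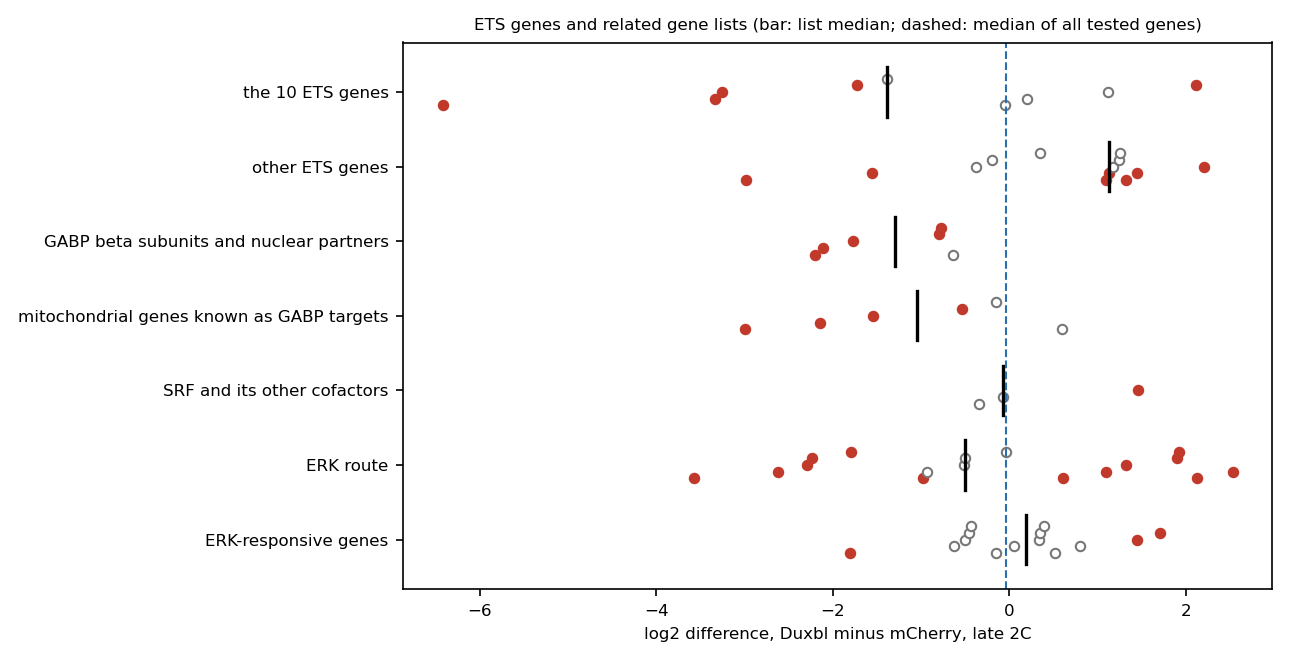
Log2 difference between Duxbl and mCherry embryos at late 2C (horizontal axis) for each tested gene of the 10 ETS genes and of 6 related lists. Filled red dots have a limma adjusted p under 0.05, black bars are list medians and the dashed line is the median of all tested genes, -0.0375. The 6 GABP partners all lie below 0, and the ERK route lies on both sides.

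Markers of other cell types and of the embryo's own stages were called in both directions at late 2C, where 56.2% of all tested genes were called. Of the markers of cumulus and granulosa cells, 2 of 4 tested were called higher and 1 lower, and their summed level was 13.9 to 52.7 CPM in Duxbl and 9.48 to 17.2 CPM in mCherry embryos. Of 3 tested oviduct markers 1 was called, Ovgp1, higher, and the sums were 74.9 to 178 CPM in Duxbl and 46.8 to 157 CPM in mCherry embryos. In uninjected embryos the oviduct sums were 3.38 to 7.41 CPM at late 1C, 2.52 to 9.92 CPM at early 2C and 41.5 to 158 CPM at late 2C. Whether oviduct cells or the embryos gave these transcripts was not tested. Of 4 tested sperm markers 1 was called higher and 3 lower, with sums of 3.43 to 31.3 CPM in Duxbl and 3.2 to 9.88 CPM in mCherry embryos. Of 10 maternal oocyte transcripts 8 were called higher and none lower, with a median of 1.69, and of 10 transcripts of the 2-cell stage all were called lower, with a median of -5.04. Their part in the members' values was not tested.

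Gabpa and Spic were also compared with all other genes by their pattern over the 9 group means of log2(CPM + 1), among 13022 genes with a highest group mean of at least 10 CPM. The 5 genes most like Spic were Eif2b5, Pnlip, D13Ertd608e, Gm2027 and Rps23, with Pearson r of 0.9987 to 0.9991 over 9 points. Eif2b5, of a translation initiation factor, averaged 5.73 CPM in Duxbl, 79.3 CPM in mCherry and 79.9 CPM in uninjected embryos at late 2C. The 5 genes most like Gabpa were Gm15455, 4930579G24Rik, Gcsh, Prps1 and Qrich1, with r of 0.9959 to 0.9971. Gcsh, of the mitochondrial glycine cleavage system, averaged 84.3 CPM in Duxbl, 958 CPM in mCherry and 1050 CPM in uninjected embryos at late 2C. Among the members, Etv5 and Spic had r = 0.99 over the 9 means and Gabpa and Ets2 had r = -0.98. The points share libraries and scaling, and these values only describe the patterns.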

How the data were processed

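RNA was measured in 50 libraries of 5 pooled embryos. The labels' protocols name a SMART-Seq v4 kit, used without RNA extraction, and Nextera XT, neither of which keeps the strand. The submitters' processing notes list featureCounts 2.0.4, STAR 2.7.10a, Trimmomatic 0.39, DESeq2 1.36.0, DESeq and Picard 3.0.0 with the genome mm 39, and their roles are not given in the sources used here. The deposited values are whole numbers treated as a score, because in 19 libraries some low whole numbers never occur, as happens when the authors scale counts and round them. Depth is therefore approximate, 13.1 to 24.4 M reads in those 19, and no counting intervals were computed.

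Values were divided by library sizes times trimmed-mean factors (0.3 of ratios and 0.05 of abundances trimmed) to give CPM, and 1 was added before log2, which understates changes at low levels. Testing required a value of 10 or more in a number of libraries equal to the smallest group. limma 3.58.1 in R 4.3.3, with a trended and robust variance prior, fitted the 3 groups of a stage for comparisons within it, and all 9 groups for changes between stages and the difference of the Duxbl effect. Tests were two-sided with Benjamini-Hochberg adjustment over all tested genes. Printed levels share 1 scaling over all libraries, which differs from that of the stage fits by a log2 shift between Duxbl and mCherry of -0.01 at late 1C, 0.02 at early 2C and 0.10 at late 2C. The procedure was tested on simulated data with 200 changed genes, all well expressed and as many raised as lowered. That setting covers neither genes at low levels nor a change as broad as at late 2C, where 56.2% of tested genes were called.

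The 10 members and the gene lists were chosen with earlier results of these data known. Named were all members, every called gene among the other ETS genes, up to 4 called genes of lowest adjusted p per list at late 2C and up to 2 at early 2C, and the 5 genes most like Gabpa and Spic. Some genes that this rule names are not reported here. Atp5f1b, Hbb-bs and Amh had no matching symbol. Same-numbered libraries deviated together in every pair, by correlation of their deviations, between Duxbl and mCherry at late 1C (0.37 to 0.54) and early 2C (0.14 to 0.49), between mCherry and uninjected at late 1C (0.11 to 0.57) and between early 2C and late 1C of uninjected embryos (0.15 to 0.50). The labels do not say what a number stands for. Alternatives were library totals, the deposited scale, a pseudocount of 0.1, no filter, voom weights, a block for library number, the compared groups alone, uninjected embryos as control, a fit of all groups and each library left out in turn. Leaving out all libraries numbered 4 was added after seeing the data.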

Additional observations from a re-analysis of the deposited data

Results flagged for a closer look

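The effect of Duxbl, relative to mCherry, differed between late 2C and early 2C by limma's test of the difference for Spic (-5.92), Etv5 (-3.04), Gabpa (-2.89) and Elk4 (1.93), on the log2 scale. For Spic, Etv5 and Gabpa, low levels in mCherry embryos at early 2C left little room for a negative effect there.

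Of 90 groups of library values of the members, 11 had a library far from the others of its group. Chance flags about 1 in 20 groups if values are normally distributed. CPM near the floor are not, and the members share libraries, so the 11 cannot be read as an excess. Gabpa was at 22.3 CPM in mCherry early 2C library 5, with the next at 9.6 CPM, and at 2.52 CPM in Duxbl late 1C library 6, with the next at 0.781 CPM. Spic was at 8.28 CPM in mCherry late 1C library 5, with the next at 3.77 CPM. Elk1 was at 18.8 CPM in mCherry late 2C library 6, with the next at 7.9 CPM. Elk4 was at 86 CPM in uninjected early 2C library 4, with the next at 148 CPM. Ets2 was at 11.7 CPM in uninjected late 2C library 1, with the next at 3.71 CPM. The other 5 were of Ets1, the member with the lowest levels. Ets1 was at 1.52 CPM in Duxbl late 1C library 6 and at 0.0452 CPM in Duxbl late 2C library 7, at 1.18 CPM in mCherry late 1C library 5, and at 2.86 CPM in uninjected late 1C library 5 and 2.02 CPM in uninjected late 2C library 4.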

How the results depend on the processing

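Over 2055 combinations of a member, a comparison and an alternative, 2000 stayed on the same side of the threshold. A call was lost in 37 and gained in 18, and none was reversed. Among the 2000, 140 changed sign with no call on either side. At late 2C between Duxbl and mCherry embryos the 5 called members were kept throughout, with 12214 to 12801 genes called in the whole table when a library was left out. Library totals moved the median of all genes there to -0.26, against -0.04, and to 0.15, against 0.03, between late and early 2C of uninjected embryos.

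Between Duxbl and mCherry embryos at early 2C, the single call, Elk1, became 0 with voom weights, in the fit of the compared groups, with uninjected embryos as control, in the fit of all groups and without the libraries numbered 4 (-0.96, limma adjusted p 0.138), and was 0 to 0 over the fits without 1 library. The 80 genes called there became 130 with a pseudocount of 0.1, 53 with no filter, 4 with voom weights, 128 with the compared groups alone and 158 against uninjected embryos. At late 1C the 4 called genes became 1 with voom weights, against uninjected embryos or in the fit of all groups, and 3 to 8 when a library was left out, with 7 without Duxbl library 6 and 8 without Duxbl library 7. Between early 2C and late 1C of uninjected embryos, the single called member became 0 with voom weights and 2 with the compared groups alone. The 833 genes became 1510 with the compared groups alone, 506 without the libraries numbered 4, and 525 to 926 when a library was left out, the lowest without early 2C library 4. The causes were not tested.

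With the library number as a block, the early 2C call of Elk1 was lost, leaving 0 members called, and at late 2C, where same-numbered libraries did not deviate together in every pair (-0.04 to 0.19), Etv6 passed (-1.64, limma adjusted p 0.014). The block changed no other call of a member. Of 33 called genes of the related lists at late 2C, 21 were kept in every alternative and 23 in every fit without 1 library.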

Other observations

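In uninjected embryos all 6 GABP partners were called, 5 of them higher and 1 lower at late 2C than at early 2C, with a median log2 difference of 0.82 against 0.03 over all tested genes, of which 57.1% were called, 30.8% higher and 26.3% lower. Yy1 rose by 3.58 (SE 0.26, limma adjusted p 5.72e-17) and Gabpb2 by 3.52 (SE 0.29, limma adjusted p 3.55e-15), and Gabpb1 rose by 0.52 (SE 0.23, limma adjusted p 0.0458). Nrf1 was lower, by a log2 difference of -0.79 (SE 0.20, limma adjusted p 0.000813). Within Duxbl embryos 2 of the 6 were called higher and 3 lower over the same step, with a median of -0.50 and 38.9% of all tested genes called. As a signed log2 difference, the effect of Duxbl on all 6 was lower at late 2C than at early 2C in limma's test of the difference. The median of that test was -1.54, with 44.9% of all tested genes called. The median effect itself was 0.02 at early 2C and -1.29 at late 2C.

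Of the 6 mitochondrial genes known as GABP targets, 3 were called higher at late 2C than at early 2C in uninjected embryos and 2 lower, a share of 5 in 6 where 57.1% of all tested genes were called. Cox4i1 rose by 2.39 (SE 0.21, limma adjusted p 2.21e-14), Tfb2m by 1.66 and Tfam by 1.22, while Tfb1m (-1.47) and Cox5b (-0.71) were lower. At early 2C Cox4i1 averaged 37.4 ± 7.84 CPM in Duxbl (n = 5), 37.9 ± 9.94 CPM in mCherry (n = 6) and 35.5 ± 4.95 CPM in uninjected embryos (n = 6).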
